A study of Mus musculus with 6 samples.

Results

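The vascular endothelial growth factor (VEGF) family was examined in cultured mouse aortic cells that are labelled endothelial. By title they were null or wild type for the mitogen-activated kinases ERK1 and ERK2 (ERK1/2). The family comprised 10 genes. They were the ligands Vegfa, Vegfb, Vegfc, Vegfd and Pgf, the receptor tyrosine kinases Kdr, Flt1 and Flt4, and the neuropilins Nrp1 and Nrp2. A gene was taken as measured where the platform annotation mapped a probe set row to that gene and no other, which left 8 of the 10 genes among 14860 genes in all. Each of the 8 had 1 such row. The row naming Flt4 also named 5 olfactory receptor genes and the row naming Nrp2 also named Pard3b, so no value could be assigned to either, and they are not analysed here.

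RNA was measured on 6 Affymetrix expression arrays. Cells came from the aorta of mice aged 4 weeks (strain C57/BL6, given as 5 generations) and grew in medium with 20% serum, heparin and endothelial cell growth supplement. The 3 cultures titled ERK1/2 null have the genotype label Erk1-/-; Erk2fl/fl with a lentivirus, named lentiviral-egfp-Cre for replicate 1 and lentiviral-Cre for replicates 2 and 3, whereas the source label gives egfp-Cre throughout. The 3 cultures titled ERK1/2 wild type carry the same genotype label, Erk1-/-; Erk2fl/fl, with lentiviral-GFP in place of Cre. By that label both groups share the loss of Erk1 and the floxed Erk2 gene, and they differ in Cre, so loss of ERK2 and the presence of Cre cannot be told apart. By their titles the cultures are biological replicates, with numbers 1 to 3 used in both groups. No label says whether they came from separate animals, so the p-values measure the spread between these cultures.

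VEGF ligands are secreted dimers that bind receptor tyrosine kinases on endothelial cells. VEGF-A signals mainly through KDR (VEGF receptor 2), which drives endothelial proliferation, migration and permeability, in part by activating ERK1 and ERK2. FLT1 (VEGF receptor 1) binds VEGF-A, VEGF-B and placental growth factor with high affinity and weak kinase output, and it also exists as a soluble decoy. VEGF-C and VEGF-D are made as precursors, are cut by proteases and act on FLT4 (VEGF receptor 3) of lymphatic endothelium. Neuropilins are co-receptors that bind both VEGF ligands and class 3 semaphorins.

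All values below are deposited log2 expression values, in which a difference of 1 is a doubling. Differences are ERK1/2 null minus wild type from limma, a linear model with moderated variances fitted to all 14860 genes, with Benjamini-Hochberg adjusted p-values and a threshold of 0.05. Arrays with the same replicate number deviated together from their group means (correlation over genes 0.57 for number 1, 0.35 for number 2 and 0.45 for number 3). Results of a second fit, in which the number was a block, are given where a call changed. Replicate 1 of both groups stood apart from replicates 2 and 3 on the second principal component, which carried 25.5% of the variance, while the first (50.9%) separated the groups. No row used here named the targeted kinases, and the group labels stand unchecked.

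Most of the endothelial marker genes gave dim signals in both groups, and these did not bear out the endothelial label of the cells. Of 18 measured endothelial markers, 13 had a mean no higher than 4.57, the 95th percentile of 718 olfactory receptor genes, which served as a description of dim probe sets. Pecam1, an endothelial adhesion molecule, lay at 3.95, 3.74 and 4.20 in ERK1/2 null and 3.44, 3.76 and 4.12 in wild type arrays. Cdh5, which encodes VE-cadherin, lay at 3.32, 3.53 and 3.59 against 3.53, 4.50 and 3.63. Cd34 and Eng, which other vascular and stromal cells also express, were brighter, with Eng (endoglin) at 9.27, 10.02 and 9.89 against 8.93, 9.65 and 9.27. None of the 18 passed the test, and the mean of the list per array was 4.63 to 4.73 in ERK1/2 null and 4.50 to 4.81 in wild type.

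Of 10 fibroblast markers 3 rose and none fell, where 5.35% of all genes rose and 6.12% fell, and 2 of the 10 were dim. Their list mean was 8.46, 9.97 and 10.33 in ERK1/2 null replicates 1 to 3, against 7.45, 7.60 and 8.37 in wild type. Col3a1, a fibrillar collagen gene, rose by 2.17 (SE 0.26, limma adjusted p = 0.0059). For Mfap5, a gene of elastic microfibrils, the rise was 2.89 (limma adjusted p = 0.0469), and for the collagen gene Col1a2 it was 0.82 (limma adjusted p = 0.036). Of 6 fits without an array, the call held in 6 for Col3a1, 2 for Mfap5 and 1 for Col1a2. The median difference of the fibroblast list was 1.61, beside 0.02 over all genes. Within all 3 replicate numbers 8 of the 10 were higher in ERK1/2 null, where 28.3% of all genes were. None was lower in all 3, where 23.3% of all genes were. Pdgfra and Fap were the exceptions. Pdgfra, a bright fibroblast marker, was 9.10, 10.39 and 10.96 against 9.99, 10.76 and 10.72, a difference of −0.34 (limma adjusted p = 0.51). Fap, which was dim, differed by 0.15 (limma adjusted p = 0.81). With the replicate block 7 of 10 fibroblast markers rose, where 8.92% of all genes did. Without a single array the count of 3 fell to 1, for null replicate 2, null replicate 3 and wild type replicate 2. Those fits called 730, 880 and 1036 of all 14860 genes, in that order. Lymphatic endothelial markers had no call among 8 genes, of which 3 were dim, among them the lymphatic master transcription factor Prox1 and Lyve1 (means 2.59 and 2.43). Others were brighter, such as Nr2f2, a transcription factor also expressed outside lymphatic vessels, at 8.69, 9.26 and 8.50 in ERK1/2 null and 9.05, 8.58 and 8.55 in wild type. With the block 1 lymphatic marker rose (Itga9, 0.78) and 1 fell (Pdpn, −0.78), and the endothelial transcription factor Erg rose (0.98, blocked limma adjusted p = 0.034). Smooth muscle markers (8 genes, list mean 6.66 to 7.00 in ERK1/2 null and 6.12 to 6.62 in wild type) and pericyte markers (5 genes, 6.79 to 7.60 against 6.24 to 6.80) had no call, and with the block 3 and 1 of them rose. Among these were Lmod1 (1.37, blocked limma adjusted p = 0.027) and Acta2 (1.18, 0.028) of smooth muscle, and Pdgfrb (1.39, 0.027) of pericytes. Without the block the lowest p were those of Myh11 (0.45, limma adjusted p = 0.065) and Pdgfrb (limma adjusted p = 0.079). Myh11 did not pass with the block either (blocked limma adjusted p = 0.089). Of 5 macrophage markers none passed in either fit, and 4 were dim. Of 5 mesothelial and epithelial markers Upk3b rose (1.58, limma adjusted p = 0.027), a call that held in 1 of 6 fits without an array. In these bulk cultures a change in the share of a cell type and a change in RNA per cell cannot be told apart.

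**Figure D1:**
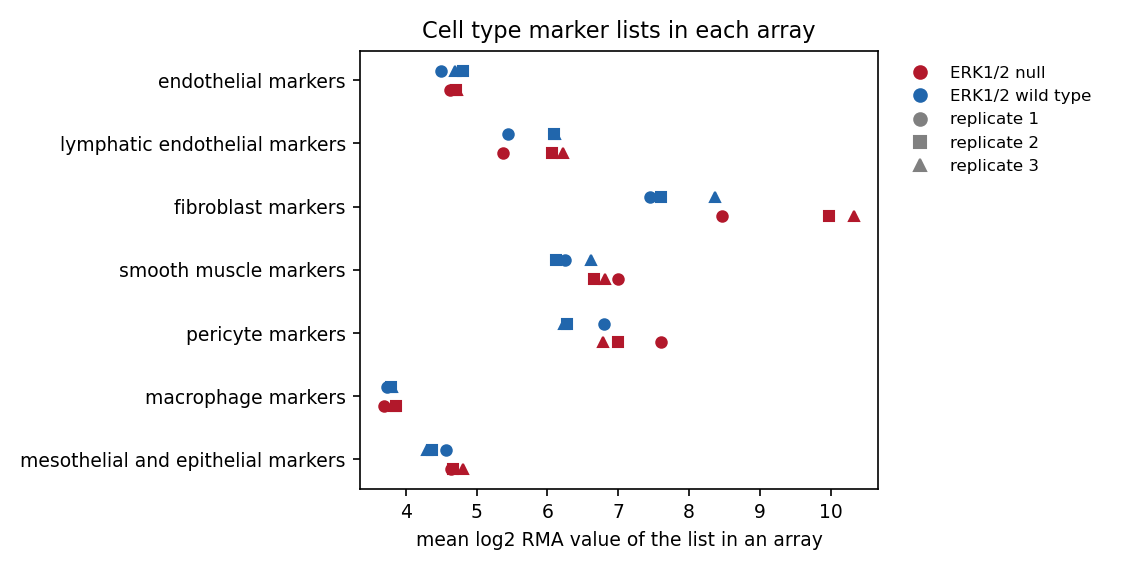
Mean log2 RMA value of each cell type marker list in each array (horizontal axis), with ERK1/2 null in red and wild type in blue and a symbol for each replicate number. The endothelial list stays between 4.50 and 4.81 in all 6 arrays, while the fibroblast list reaches 10.33 in ERK1/2 null and 8.37 in wild type.

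Of the 8 measured VEGF family genes, Vegfd rose in ERK1/2 null cultures and no member fell. This was 1 of 8 called, where 11.5% of all genes were called (5.35% higher and 6.12% lower). The median log2 difference of the 8 was 0.24, beside 0.02 over all genes. Signs were mixed, with 5 positive and 3 negative differences. The groups did not overlap for Vegfd and Pgf, both higher in ERK1/2 null (2 of 8, where 16.5% of all genes were separated in that direction, 14.6% in the other and 31.0% in either). The other 6 members overlapped between groups. Within all 3 replicate numbers, 3 members were higher in ERK1/2 null (Vegfd, Pgf and Flt1, where 28.3% of all genes were) and 1 was lower (Kdr, where 23.3% were).

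**Figure D2:**
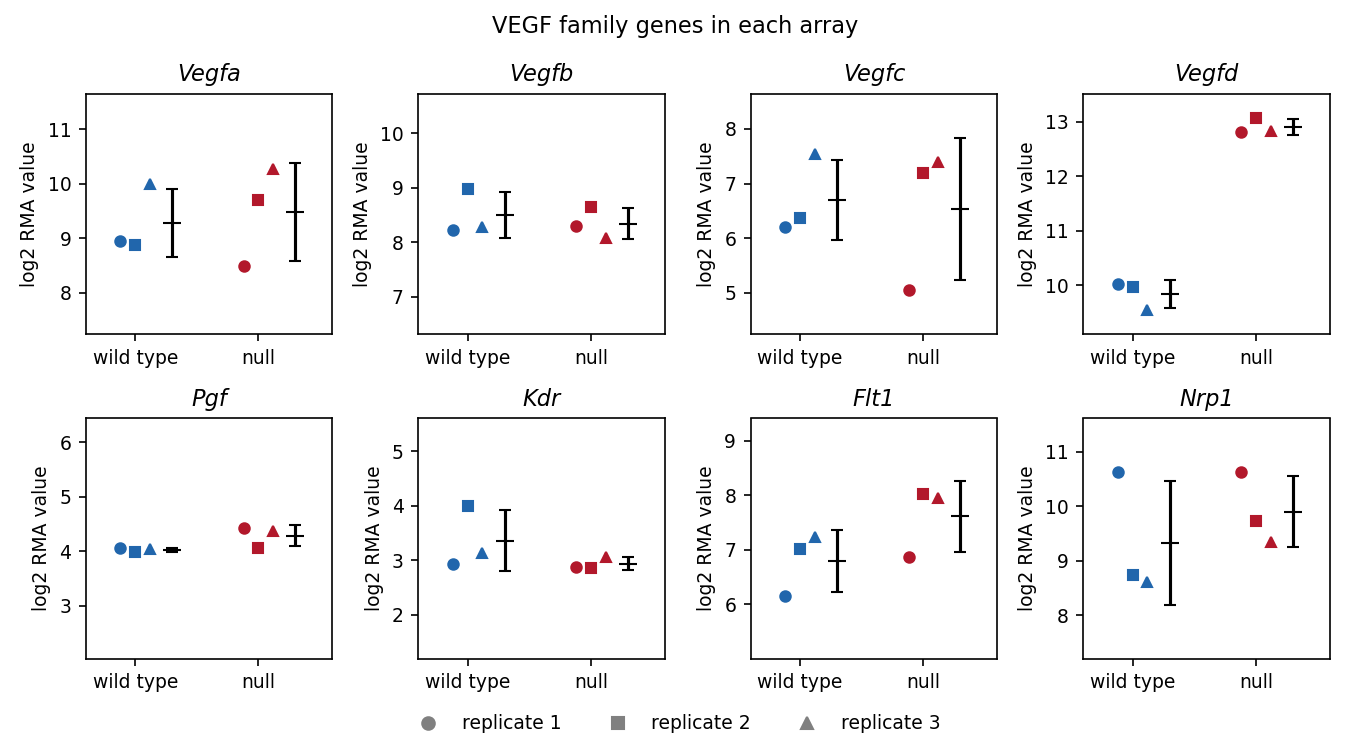
Log2 RMA value (vertical axes, each spanning the same width of the scale) of the 8 measured genes in every array, wild type in blue and ERK1/2 null in red, a symbol for each replicate number, with the group mean and SD in black. Vegfd lies at 12.81 to 13.07 in ERK1/2 null and 9.54 to 10.02 in wild type, and the groups of Vegfa, Vegfb, Vegfc, Kdr, Flt1 and Nrp1 overlap.

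Vegfd encodes VEGF-D, a ligand of FLT4 that in humans also binds KDR, and the gene lies on chromosome X (GRCm38.p6, bases 164373522 to 164402650). Its values were 12.81, 13.07 and 12.82 in ERK1/2 null replicates 1 to 3 and 10.02, 9.97 and 9.54 in wild type. All 3 null arrays lay far above all 3 wild type arrays, and the SDs within the groups were 0.15 and 0.26. The difference of 3.06 (SE 0.17, 95% interval 2.66 to 3.46, limma adjusted p = 0.0014) corresponds to 8.33-fold (interval 6.31 to 11.0). Only 33 of all genes, 0.222%, had a difference at least as large, Vegfd among them, and its unadjusted p ranked 5 of 14860. The differences within replicate numbers 1, 2 and 3 were 2.79, 3.11 and 3.28. In all 19 alternative fits Vegfd kept its call, with differences from 2.91 to 3.19 and adjusted p up to 0.026.

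The list means of the fibroblast, smooth muscle and pericyte markers, given above, were also higher in ERK1/2 null than in wild type within each replicate number. The 3 called fibroblast markers separated the groups, with Col3a1 at 9.95, 10.64 and 11.00 in ERK1/2 null and 8.36, 8.27 and 8.45 in wild type. Dcn, a fibroblast proteoglycan that did not pass without the block (limma adjusted p = 0.21, blocked 0.026), overlapped, at 7.70, 12.55 and 13.14 against 5.36, 6.05 and 9.77. Pdgfra, given above, also overlapped and differed by −0.34. Dpt, a fibroblast marker with a difference of 3.36, separated the groups. It did not pass without the block (limma adjusted p = 0.075, blocked 0.0449). The part of fibroblast, smooth muscle and pericyte marker expression in the Vegfd difference was not tested.

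Vegfc, which encodes VEGF-C, is the ligand closest in role to VEGF-D and a main driver of lymphatic vessel growth (chromosome 8, bases 54077532 to 54186454). Its values were 5.04, 7.19 and 7.39 in ERK1/2 null and 6.20, 6.37 and 7.54 in wild type, so the groups overlapped and null replicate 1 was the lowest of the 6 arrays. The difference was −0.16 (SE 0.69, 95% interval −1.82 to 1.50, limma adjusted p = 0.93), an interval that spans 0.283-fold to 2.82-fold. Within replicate numbers 1, 2 and 3 it was −1.16, 0.82 and −0.15. Its sign turned when null replicate 1 was left out (0.59) and when wild type replicate 3 was (0.25).

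The ratio of Vegfd to Vegfc within each array therefore shifted mainly with Vegfd. On the log2 scale it was 7.77, 5.88 and 5.43 in ERK1/2 null and 3.81, 3.60 and 2.00 in wild type, with every null array above every wild type array. The group means were 6.36 ± 1.24 and 3.14 ± 0.99 (SD, n = 3 each), a shift of 3.22, which describes unequal change and not the relative abundance of the 2 transcripts.

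The 250 bases before the annotated start of each of these ligand genes are shown, since one transcript rose and the other did not pass the test. The sequences are from RefSeq (GRCm38.p6, + strand, chrX:164373272-164373521 for Vegfd and chr8:54077282-54077531 for Vegfc), 5′ to 3′, with CG dinucleotides in capitals.
Vegfd: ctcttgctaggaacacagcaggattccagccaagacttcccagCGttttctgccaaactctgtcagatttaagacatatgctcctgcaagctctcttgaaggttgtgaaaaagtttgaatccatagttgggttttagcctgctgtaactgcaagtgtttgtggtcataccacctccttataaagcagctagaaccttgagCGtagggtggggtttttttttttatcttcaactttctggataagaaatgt
Vegfc: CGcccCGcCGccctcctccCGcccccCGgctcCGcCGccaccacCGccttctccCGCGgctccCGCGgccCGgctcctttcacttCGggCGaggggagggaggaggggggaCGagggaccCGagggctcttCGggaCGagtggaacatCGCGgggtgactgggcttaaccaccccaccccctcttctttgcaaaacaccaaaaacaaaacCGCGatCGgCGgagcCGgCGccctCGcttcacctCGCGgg
The Vegfd stretch had 2 CG dinucleotides and 42.4% G and C, and the Vegfc stretch had 30 and 71.6%, beside medians of 6 and 52.4% over 32851 promoters of the same length. Both strands were searched for the letters ACGTG and GCGTG (cores of the hypoxia response element), TGANTCA (AP-1), TGACGTCA (cyclic AMP response element, which contains no ACGTG) and CCGGAAG (ETS factors). None of them matched in either stretch. The shares of all promoters with a match were 16.6%, 28.2%, 6.75%, 1.55% and 6.91% in that order. A lack of these letters in this window says nothing of the factors themselves.

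Vegfa encodes VEGF-A, the main angiogenic ligand (chromosome 17, bases 46016993 to 46032377). It was 8.50, 9.70 and 10.27 in ERK1/2 null and 8.96, 8.88 and 10.00 in wild type. The range within each group exceeded the difference between groups, and replicate 3 was the highest array of both. The difference was 0.21 (SE 0.51, 95% interval −1.01 to 1.44, limma adjusted p = 0.85), and within numbers 1 to 3 it was −0.45, 0.82 and 0.27. Without null replicate 3 the sign turned (−0.18).

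Vegfb encodes VEGF-B, a FLT1 ligand linked to fatty acid uptake and survival in heart and muscle (chromosome 19, bases 6982472 to 6987651). Its values were 8.30, 8.65 and 8.08 in ERK1/2 null against 8.23, 8.98 and 8.28 in wild type, with replicate 2 the highest in both groups. It had a difference of −0.15 (SE 0.25, 95% interval −0.76 to 0.45, limma adjusted p = 0.78), an interval that spans 0.591-fold to 1.37-fold. Without wild type replicate 2 the difference was 0.09.

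Pgf encodes placental growth factor, which binds FLT1 and neuropilin-1 (chromosome 12, bases 85166637 to 85177785). Its probe set was dim, and 91.5% of the olfactory receptor genes had a mean at or below its own. The values were 4.43, 4.07 and 4.38 in ERK1/2 null and 4.06, 3.99 and 4.04 in wild type. All 3 null arrays lay above the wild type arrays, null replicate 2 by 0.01. The difference of 0.27 (SE 0.13, 95% interval −0.05 to 0.58) did not pass (limma adjusted p = 0.27, and 0.23 with the replicate block). Dim RMA values are compressed, which can understate a change.

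Flt1 lies on chromosome 5 (bases 147561604 to 147726438). Its values were 6.86, 8.03 and 7.94 in ERK1/2 null and 6.15, 7.01 and 7.23 in wild type. Null replicate 1 lay below 2 of the wild type arrays, but within every replicate number the null array was higher, by 0.71, 1.03 and 0.71. The mean difference was 0.82, or 1.76-fold (SE 0.41, 95% interval −0.16 to 1.80, limma adjusted p = 0.28). With the replicate block the SE was 0.13, the interval 0.49 to 1.15 and the adjusted p 0.016. Vegfd and Flt1 were then 2 of 8 members called, where the block called 16.7% of all genes (8.92% higher and 7.76% lower). Flt1 also passed when replicate 1 of both groups was left out (0.87, limma adjusted p = 0.043). It did not pass with the block without number 2 (adjusted p = 0.086) or number 3 (0.069), fits added after the data were seen, or with the number as a random block (0.13).

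The Flt1 promoter held the 1 match to the cyclic AMP response element among the family's promoters, a sequence that 1.55% of all promoters hold. It is shown within a stretch of 30 bases (GRCm38.p6, chr5:147726074-147726103, − strand, RefSeq), the element in capitals, from 81 to 74 bases before an annotated start.
Flt1: gggggacccctTGACGTCActggaaggagg
In the same window GCGTG matched in promoters of Flt1, Kdr, Nrp1, Nrp2, Pgf, Vegfa and Vegfb, where 28.2% of all promoters hold it. ACGTG matched in 1 Vegfa promoter, where 16.6% of all promoters hold it. The AP-1 and ETS letters matched in no promoter of the family. These matches are a description of the letters and were not tied to the array values.

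Kdr encodes VEGF receptor 2 (chromosome 5, bases 75932827 to 75979072), the receptor through which VEGF-A mainly signals in endothelium. Its values were 2.88, 2.86 and 3.07 in ERK1/2 null and 2.93, 4.00 and 3.14 in wild type. Of the olfactory receptor genes 74.5% had a mean at or below that of Kdr, so the probe set gave little signal in either group, and wild type replicate 2 alone reached 4.00. The difference was −0.42 (SE 0.28, 95% interval −1.09 to 0.26, limma adjusted p = 0.42). Leaving out wild type replicate 2 gave −0.10. Within numbers 1, 2 and 3 it was −0.05, −1.14 and −0.07, all negative. The same wild type array was also the highest for Cdh5, at 4.50.

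The log2 ratio of Flt1 to Kdr within arrays was 3.98, 5.17 and 4.87 in ERK1/2 null and 3.22, 3.01 and 4.09 in wild type. Null replicate 1 overlapped wild type replicate 3. Since the Kdr probe set was dim, no shift in this ratio was read from these values.

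Nrp1 encodes neuropilin-1, a co-receptor for VEGF-A and a receptor subunit for semaphorin 3A (chromosome 8, bases 128358591 to 128505476). It was 10.63, 9.72 and 9.35 in ERK1/2 null and 10.63, 8.73 and 8.61 in wild type. Replicate 1 was the highest array of each group, with a null minus wild type difference of −0.01, whereas null replicates 2 and 3 exceeded their wild type partners by 0.99 and 0.74. The difference of 0.58 (SE 0.61, 95% interval −0.88 to 2.04) did not pass without the block (limma adjusted p = 0.63) or with it (0.14). With the block and number 1 left out of both groups, a fit added after the data were seen, it was 0.87 with an adjusted p of 0.030.

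**Figure D3:**
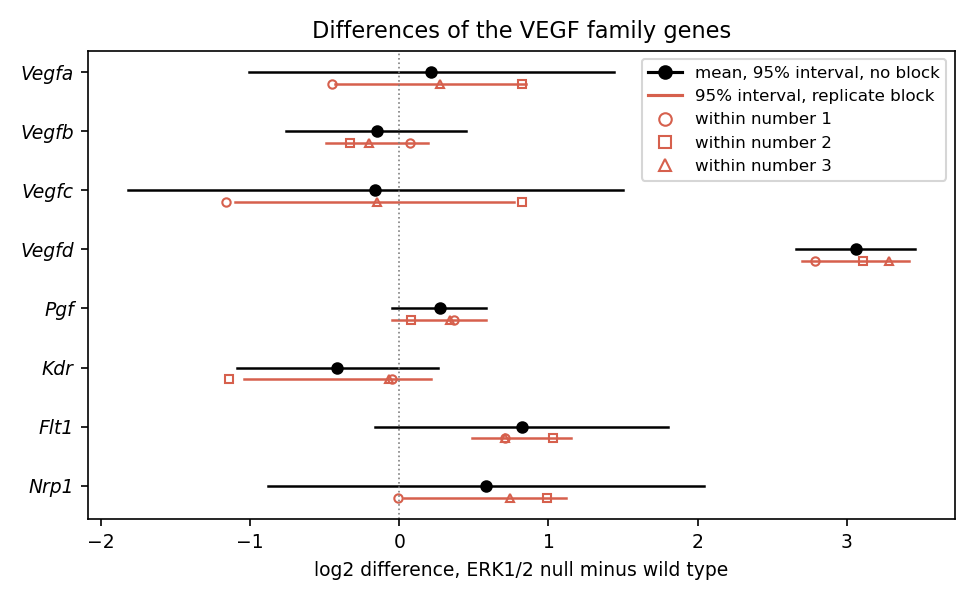
Log2 difference, ERK1/2 null minus wild type, of each gene (horizontal axis), with the mean and 95% interval without a block in black, and in red the 95% interval with the replicate block and the differences within each replicate number. The Vegfd intervals start at 2.66 or higher, the Flt1 and Nrp1 intervals exclude 0 with the block and not without it (Nrp1 by 0.03, with an adjusted p of 0.14), and the other intervals include 0.

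Vegfd varied mainly with group, while Vegfa, Vegfb, Vegfc, Nrp1 and Flt1 varied most with replicate number. The sum of squares of each gene over the 6 arrays was split into group, replicate number and remainder, as a description. Number has more degrees of freedom than group, so its share is larger by construction when neither has an effect. For Vegfd the group held 98.7% and the number 0.8%. For Vegfa, Vegfb, Vegfc, Nrp1 and Flt1 the number held 80.7%, 86.2%, 77.2%, 80.4% and 58.7%. How many of all genes had more than 50% with the number was not counted, so no trait of the family is read from these shares. The median over all genes was 33.2% for the number and 29.5% for the group. Flt1 had 40.0% for the group and 1.3% for the remainder. Over the 6 arrays Vegfd spanned 3.53, Vegfc 2.50, Nrp1 2.02, Flt1 1.88 and Vegfa 1.77 on the log2 scale, beside a median span of 0.67 over all genes. The directions by number were not shared, since replicate 1 was low for Flt1 and high for Nrp1 in both groups.

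**Figure D4:**
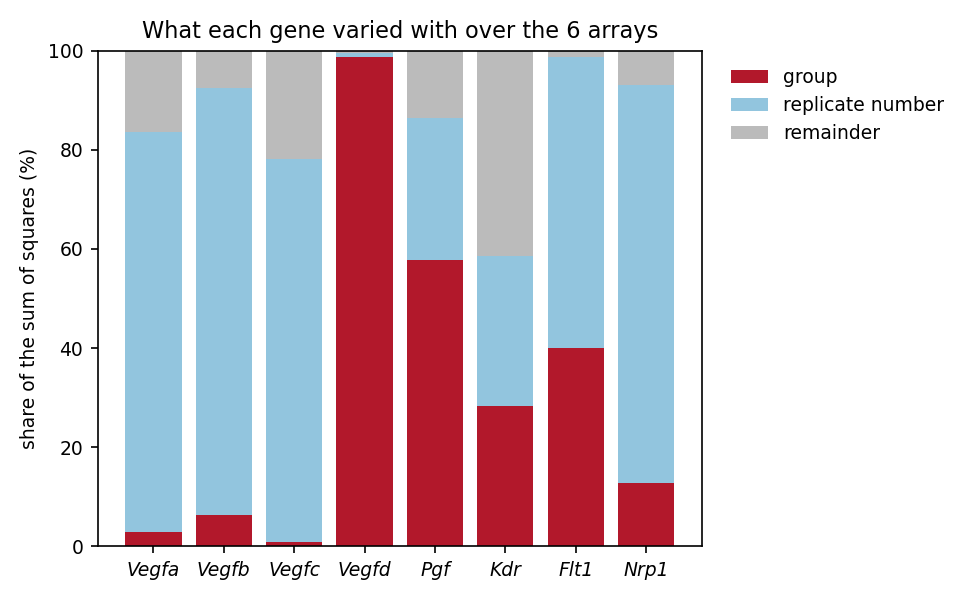
Share of the sum of squares over 6 arrays (vertical axis, percent) held by group, replicate number and remainder for each measured gene. The group holds 98.7% for Vegfd, while the number holds between 58.7% and 86.2% for Vegfa, Vegfb, Vegfc, Flt1 and Nrp1.

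Genes with the pattern most like that of Vegfd were found by the root mean square difference of mean-centred log2 values over the 6 arrays. They were Akr1c14 (0.21), an aldo-keto reductase of steroid metabolism, Serpina3n (0.267), an acute-phase protease inhibitor, Tmtc1 (0.304) and Ndrg1 (0.304), a stress- and hypoxia-responsive gene, where the median gene was 1.54 away. Their own differences were 2.89, 3.44, 3.21 and 2.66, and a size near that of Vegfd follows from how they were chosen. Those most like Flt1 were Ptpn13 (0.10), a protein tyrosine phosphatase, Slc7a7 (0.109), an amino acid transporter subunit, Nol3 (0.111), an apoptosis repressor, and Cnn1 (0.115), the smooth muscle protein calponin, with a median of 0.66.

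The genes around the receptors were read from 8 lists by role, with 101 measured genes. Of these 16 were called, 12 higher and 4 lower in ERK1/2 null, where 5.35% of all genes were called higher and 6.12% lower. The count was 8 without null replicate 2, null replicate 3, wild type replicate 2 or wild type replicate 3, and 30 with the replicate block, which called 16.7% of all genes. Of the 16, 6 passed without each array in turn, namely Gab1, Adamts1, Hlx, Sema3a, Sema3b and Ndrg1.

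Receptor-proximal adaptors and kinases had 1 call among 13 genes, where 11.5% of all genes were called, and a median of 0.00. Gab1, an adaptor that links activated receptors to PI3-kinase and ERK signalling, was 8.64, 8.70 and 8.38 in ERK1/2 null and 7.66, 7.69 and 7.35 in wild type, groups that did not overlap. It rose by 1.01 (SE 0.15, limma adjusted p = 0.011). Without single arrays its limma adjusted p reached 0.0494, without null replicate 2. Gab1 was not called when replicate number 1 was left out of both groups, or with the block without number 2. Plcg1, the phospholipase recruited by KDR, differed by 0.15 (limma adjusted p = 0.43).

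Downstream branches had 2 higher and 1 lower among 20 genes, beside 5.35% and 6.12% of all genes, with a median of −0.11. Pik3r1, the regulatory subunit of PI3-kinase, rose by 1.39 (SE 0.23, limma adjusted p = 0.015). Its call held in 4 of 6 fits without an array (limma adjusted p up to 0.061, without wild type replicate 3). Ppp3ca, a calcineurin catalytic subunit, rose by 0.88 (limma adjusted p = 0.040), a call lost whichever array was left out. Prkca, the protein kinase C between phospholipase C-gamma and ERK, fell by 0.84 (SE 0.16, limma adjusted p = 0.024). Its call held in 3 of 6 fits without an array (limma adjusted p up to 0.082, without null replicate 3). With the replicate block Pik3cb and Nfatc1 were lower too (log2 differences −1.08 and −0.80, blocked limma adjusted p = 0.038 and 0.035). Nos3, the endothelial nitric oxide synthase, differed by 0.05 (limma adjusted p = 0.84).

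Genes that VEGF induces in endothelial cells had 3 calls higher and 2 lower among 22, where 5.35% and 6.12% of all genes were called, and a median of 0.15. With the block 4 were higher and 6 lower, beside 8.92% and 7.76% of all genes. Adamts1, a matrix protease that can bind VEGF-A, was 11.47, 11.68 and 11.04 in ERK1/2 null and 9.39, 8.44 and 8.38 in wild type, and rose by 2.66 (SE 0.31, limma adjusted p = 0.0053). Angpt2, a TIE2 ligand that loosens vessels for sprouting, rose by 2.47 (SE 0.49, limma adjusted p = 0.025). Its call held in 3 of 6 fits without an array (limma adjusted p up to 0.083, without wild type replicate 3). Egr1, an early growth response factor whose induction depends on ERK, fell by 1.13 (SE 0.28, limma adjusted p = 0.0494), a call that held in 1 of 6 fits without an array. The other 2 called genes, named because the count was small, were the transcription factor Hlx (0.91, limma adjusted p = 0.011) and the urokinase receptor Plaur (−1.13, limma adjusted p = 0.0484), whose call was lost whichever array was left out. Egr3 and Ptgs2 fell with the block (log2 differences −1.71 and −1.77, blocked limma adjusted p = 0.021 and 0.033).

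Ligands and partners of neuropilins had 1 higher and 1 lower among 11 genes, beside 5.35% and 6.12% of all genes, with a median of 0.28. Sema3a, the semaphorin that signals through neuropilin-1, was 8.02, 7.56 and 7.67 in ERK1/2 null and 9.75, 9.45 and 9.22 in wild type, and fell by 1.72 (SE 0.19, limma adjusted p = 0.0042). Sema3b was 7.23, 7.14 and 7.30 against 5.59, 5.57 and 5.66, and rose by 1.61 (SE 0.10, limma adjusted p = 0.0014). The groups did not overlap for either gene, and their arrays within a group lay within 0.53 of each other. With the block Sema3d (2.70, blocked limma adjusted p = 0.0086) and Sema3c (1.44, 0.013) rose. In all 3 of the list were then higher and 2 lower, beside 8.92% and 7.76% of all genes. Nrp1, to which these ligands bind, did not pass in either fit, as given above.

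Of 12 co-receptors, modulators and antagonists only the heparan sulfate proteoglycan Sdc2 was called, where 11.5% of all genes were. It rose by 0.75 (SE 0.17, limma adjusted p = 0.042), with a list median of −0.01. The Sdc2 call held in 1 of 6 fits without an array (limma adjusted p up to 0.12, without null replicate 3). With the block Thbs2, the angiogenesis inhibitor thrombospondin 2, rose and the integrin subunit Itgb3 fell (1.84 and −1.33, blocked limma adjusted p = 0.0066 and 0.025). Among 6 genes that process VEGF-C and VEGF-D, cathepsin D (Ctsd), which can cleave both ligands, rose by 0.79 (SE 0.14, limma adjusted p = 0.019). The Ctsd call held in 2 of 6 fits without an array (limma adjusted p up to 0.078, without null replicate 2). Ccbe1, the cofactor for VEGF-C maturation, was 5.60, 5.91 and 8.10 against 6.22, 8.37 and 9.07, a difference of −1.35 (limma adjusted p = 0.43). The groups overlapped, and the list median was 0.11.

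Hypoxia induces Vegfa in most cells, and its sensing genes had 1 call among 8, where 11.5% of all genes were called, with a median of 0.28. Arnt, the partner of hypoxia-inducible factors, rose by 0.58 (SE 0.13, limma adjusted p = 0.035), a call lost whichever array was left out. Epas1, which encodes HIF-2-alpha, was 9.70, 9.05 and 8.02 against 7.68, 6.30 and 6.25, a difference of 2.18 that did not pass with all 6 arrays and no block (limma adjusted p = 0.0525) and passed with the block (0.0047) and in 2 of 6 fits without an array. Of 9 hypoxia-responsive genes 2 rose and none fell, beside 5.35% and 6.12% of all genes, and the median was 0.61. Ndrg1 rose by 2.66 (SE 0.17, limma adjusted p = 0.0014), with 9.86, 9.58 and 9.49 in ERK1/2 null and 6.82, 7.27 and 6.86 in wild type. Pfkfb3, a glycolytic regulator of endothelial sprouting, rose by 1.35 (limma adjusted p = 0.0499). That call held in 1 of 6 fits without an array (limma adjusted p up to 0.14, without wild type replicate 3). Bnip3 rose with the block (0.61, blocked limma adjusted p = 0.036). Vegfa itself differed by 0.21 with overlapping groups.

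**Figure D5:**
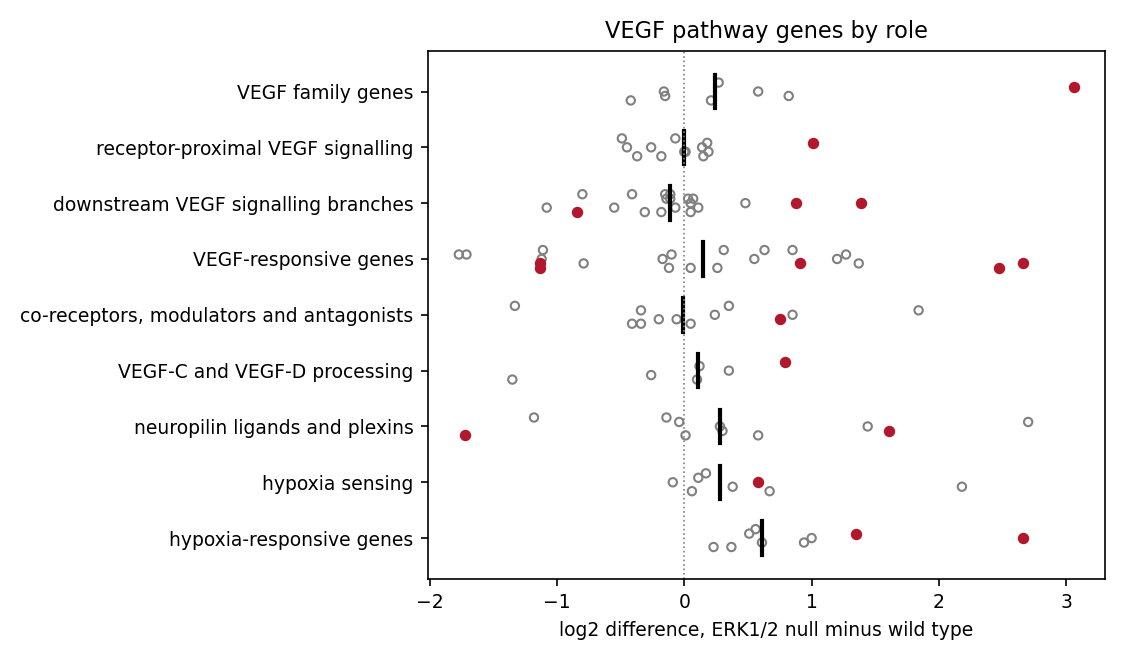
Log2 difference, ERK1/2 null minus wild type (horizontal axis), of each measured gene of the VEGF family and of 8 lists of pathway genes by role. Filled red points passed an adjusted p of 0.05 without a block, open points did not, and black bars are list medians, which lie between −0.11 and 0.61.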

How the data were processed

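The deposited table held log2 expression values, which the authors made with RMA (robust multi-array average: background correction, normalization between arrays and probe set summary), per the submitters' processing notes. Precision rests on having 3 arrays per group. Of 16775 rows, 14996 named 1 gene, 1019 several and 760 none in the annotation used here. Names were updated through the gene table of GRCm38.p6, and the brightest row stood for each of 135 genes with several rows. Differences were fitted with limma 3.58.1 (lmFit and eBayes, 2-sided) in R 4.3.3 without a block, and tables were handled with Python 3.11.15 and pandas 2.3.3. The fit without a block was tested on simulated data with independent noise in each array. Deviations shared by replicate number, and the fits with a block, were not part of that simulation. The same-numbered arrays correlated at 0.35 or more in their deviations, and differently numbered arrays of opposite groups at −0.41 to 0.04. No label says that the numbers pair the cultures, so the pairing was inferred from these same data. Named list genes were up to 3 called per list by size, the lowest p where none was called, and up to 2 called with the block and not without it. Plcg1, Nos3, Ccbe1, Hlx, Plaur, Prox1, Lyve1, Nr2f2, Pdgfra, Fap and the endothelial markers with values were chosen after their values were seen. Members and lists were chosen with earlier results of these data known. Alternatives covered normalization, filters, variance priors, weights, row rules, pairing, left-out arrays and the threshold.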

Additional observations from a re-analysis of the deposited data

How the results depend on the processing

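Vegfd kept its direction and call in all 19 alternative fits (2.91 to 3.19). No other member was called by normalization, array weights, prior, row or filter choices. The replicate block called 2 of 8 members, adding Flt1 (0.82, blocked limma adjusted p = 0.016), where it called 16.7% of all genes. Leaving out number 1 of both groups also called 2, adding Flt1 (0.87), where 1184 of 14860 genes were called. The block without number 1 called 3, adding Nrp1 (0.87, Flt1 0.87), where 2053 of 14860 genes were called. The block without number 1, 2 or 3 was chosen after seeing the data. The sign of Vegfc turned with array weights (0.04) and without number 1 (0.34, with or without the block), and ranged from −0.59 to 0.59 without single arrays. Vegfa turned with the block without number 2 (−0.09) and ranged from −0.18 to 0.71 without single arrays, and Vegfb from −0.31 to 0.09. Of all genes 1705 were called, 2479 with the replicate block, 2567 with a random block (correlation 0.26), 703 and 806 with the block without numbers 2 and 3, 545 at an adjusted p under 0.01, and 730 to 1331 without single arrays. The pathway lists had 16 calls, 30 with the replicate block, 34 with the block without number 1, 4 at 0.01 and 8 to 14 without single arrays. Over all alternatives the VEGF-responsive genes had 1 to 12 calls (5), downstream branches 0 to 5 (3), neuropilin partners 2 to 5 (2), modulators 0 to 4 (1), hypoxia-responsive genes 1 to 4 (2), hypoxia sensing 0 to 2 (1), processing genes 0 to 2 (1), receptor-proximal genes 0 to 1 (1) and fibroblast markers 1 to 7 (3), with the reported count in parentheses. The cause of these shifts was not tested beyond the fewer arrays or changed residual spread that each fit implies. Kdr and Pgf, left out by the filter on dim genes, gave no value there, and their dim signal limits what a difference can show.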
